A study of Camelina sativa with 12 samples.

Results

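The question addressed here was whether salt changed the messenger RNA of a gene by a different amount in the roots and in the shoots of Camelina sativa. For each gene the log2 change with salt in roots was taken, the log2 change with salt in shoots was subtracted from it, and the remainder is called the difference of the salt changes. Only genes that could show both a rise and a fall in both organs were used, that is, genes whose mean was 2 or more in control roots and 2 or more in control shoots. This left 39895 of the 49932 genes listed. All 39895 also passed the filter on low values used for the statistical model.

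The plants were of the double haploid line DH55 of camelina, an oilseed of the mustard family, and all groups were this single line. Control roots and control shoots came from plants watered without added salt, and salt-treated roots and shoots from plants given NaCl at 192 mM (15 dSm-1) for 21 days, and all were harvested at 28 days, before bolting. The labels start the salt 7 days after sowing, whereas the study's general growth methods name a later day. Each of these 4 groups had 3 libraries, 12 in all, which the study calls biological replicates. The deposited values are CPM, read counts scaled to the library size, normalised further by the authors and rounded to whole numbers, so they are scores with 1 as the smallest step, here called normalised CPM. No read totals came with the values, so depth is unknown. Whole organs were sampled, and fewer cells of a type cannot be told apart from less RNA per cell.

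Roots meet salt first, and shoots receive the sodium and chloride that the xylem carries upward. In Arabidopsis, a close relative, the plasma membrane exchanger SOS1 pumps sodium out of cells, HKT1 withdraws it from the xylem stream and NHX exchangers move sodium and potassium into vacuoles. Plants also make osmolytes such as proline and raffinose under salt, and abscisic acid (ABA), ethylene, jasmonate, gibberellin and brassinosteroid adjust growth to the stress. The camelina genome is triplicated, so most genes have near-identical copies (homeologues) whose reads may have been divided among them with some error, and values of single copies are less certain than their sum.

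The organs carried their own transcripts. The summed value of 7 green-tissue markers (Rubisco small chain, chlorophyll-binding and photosystem genes) was 18198 to 20048 in control shoots and 9688 to 12203 in salt-treated shoots. It was 12 to 29 in control roots and 75 to 201 in salt-treated roots, where 3 of the 7 markers were at 0 in every library. Of 6 root markers, 1 is in the table, the auxin carrier Ethylene Insensitive Root 1 (Csa11g090640), at 11 to 18 in control roots, 4 in each salt-treated root library and 1 to 2 in shoots. Library totals were 882288 to 938888 in roots and 1077479 to 1117956 in shoots.

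Of the 39895 genes, 30935 were called neither in an organ nor in the difference between organs, and 2800 were called in the same direction in both. Across the 39895 genes the difference of the salt changes had a median of -0.02 on the log2 scale, with 25% of genes below -0.31 and 25% above 0.29, and 91.3% of genes lay within 1 log2 unit of no difference. The changes in roots and shoots had a Pearson's r of 0.69 across genes, which are not independent replicates. The model was fitted in limma to the 49928 genes tested, with Benjamini-Hochberg adjustment, and a difference was called where its absolute value was above 1 and its adjusted p did not exceed 0.05. By this rule 1500 genes (3.76% of the 39895) had a higher, that is more positive, salt change in roots, and 1589 (3.98%) had a higher one in shoots. Over all genes tested, including those near 0 in an organ, 6.09% and 6.25% were called (12.3% in either direction). At an unadjusted p under 0.05, with no limit on size, 13315 of the 39895 differed. Differences past 3 log2 units were fewer in the first direction (26 genes) than in the second (64 genes).

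**Figure D1:**
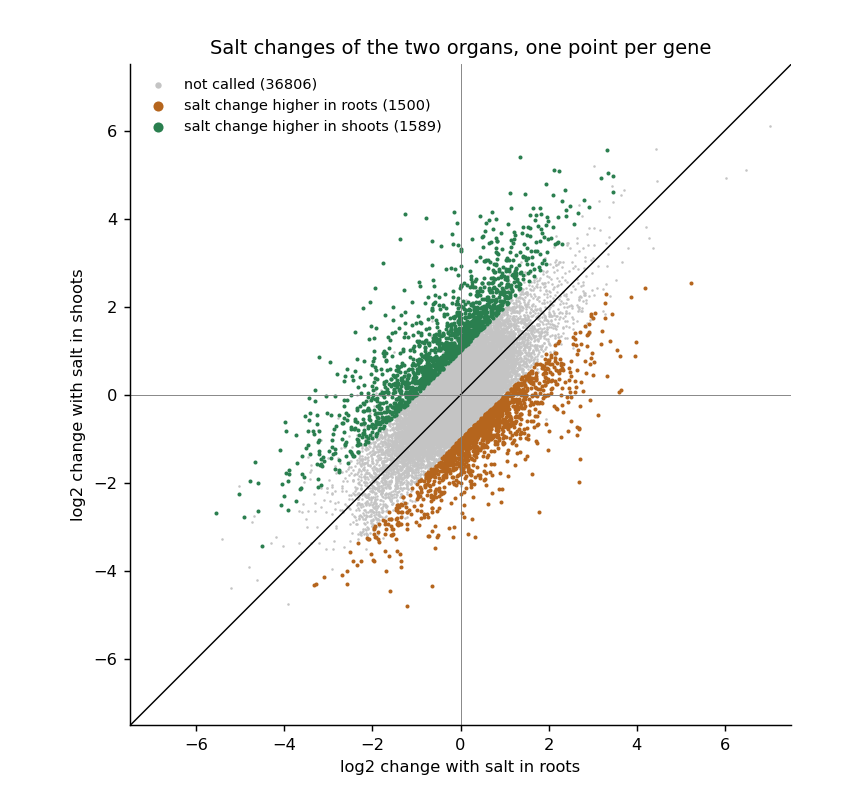
Log2 change with salt in roots (x axis) against that in shoots (y axis) for 39895 genes, with the line of equal change. The 1500 genes called as higher in roots lie below the line, the 1589 called as higher in shoots lie above it, and the grey points between them were not called.

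The calls within each organ show which organ moved. Among the 39895 genes, salt raised 1910 (4.79%) and lowered 3057 (7.66%) in roots, and raised 2854 (7.15%) and lowered 3279 (8.22%) in shoots. Over all 49928 genes tested the shares were 8.22% and 7.85% in roots (16.1% in either direction) and 10.8% and 8.87% in shoots (19.7% in either direction). Of the 1589 genes with the higher change in shoots, the most frequent pattern was a rise in shoots with no call in roots (702 genes, median log2 changes of 1.66 and 0.20). A further 373 fell in roots alone, 147 rose in both organs but more in shoots, 70 fell in both but more in roots, and 35 fell in roots and rose in shoots. Of the 1500 genes with the higher change in roots, 552 fell in shoots alone, 354 rose in roots alone, 86 fell in both organs but more in shoots, 33 rose in both but more in roots, and 21 rose in roots and fell in shoots. The remaining 454 and 262 genes were called in neither organ. Their median log2 changes in roots and shoots were 0.58 and -0.69 for the 454, and -0.63 and 0.67 for the 262. How many of them had changes of opposite sign was not counted.

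**Figure D2:**
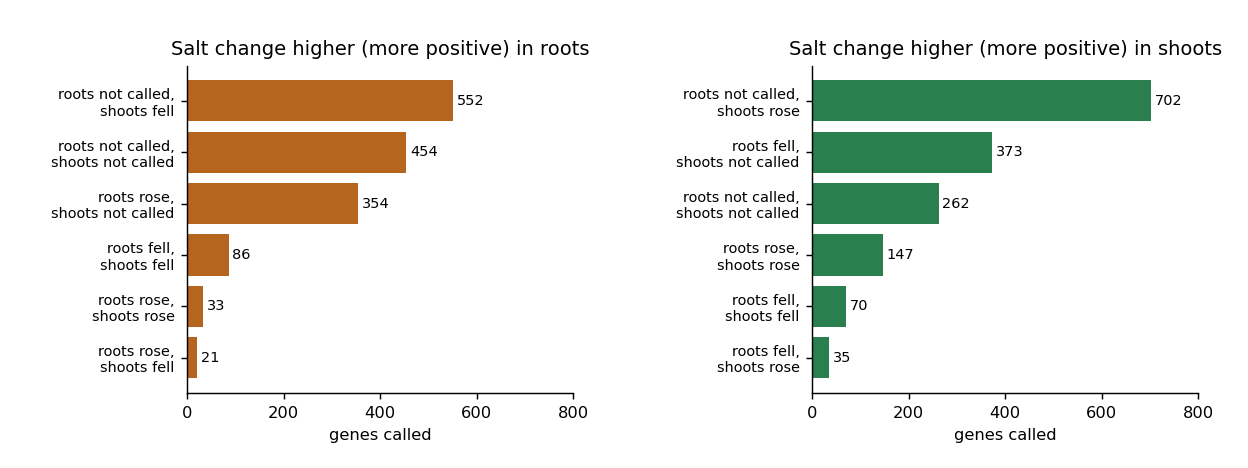
Number of genes called (x axis) by the call in each organ, for the 1500 genes with a higher salt change in roots (left) and the 1589 with a higher one in shoots (right). Falls in shoots alone (552) lead on the left, and rises in shoots alone (702) lead on the right.

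A call in 1 organ alone mostly came without a called difference. Of 2111 genes called in roots but not in shoots, 727 (34.4%) had a called difference, and of 3277 called in shoots but not in roots, 1254 (38.3%) did. Of the 2800 genes called in the same direction in both organs, 336 (12%) differed. The called share depended on how the level was taken. Among genes with a mean under 5 over all libraries, 3.43% were higher in roots and 2.49% higher in shoots, and among genes at 100 or more the shares were 7.56% and 8.74%. Raising the limit on both control means instead lowered them, to 2.63% and 3.49% at 5 and to 1.85% and 3.56% at 20. The genes with a lower control mean from 2 to under 2.33 (1701 genes, just inside the limit) were called in 8.29% and 5.70% of cases, and those from 1.67 to under 2 (1197 genes, just outside) in 9.36% and 9.52%.

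Salt shoot replicate 2 stood apart. Of 884 genes that rose in shoots and had the higher change there, it had the smallest value of its group in 669, against 49 and 113 for replicates 1 and 3. Without it, 1794 and 1977 genes were called as higher in roots and in shoots. Salt root replicate 1 was the highest of its group in 248 of 408 genes that rose in roots and had the higher change there, and without it the counts were 1389 and 1443.

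The gene groups below are those that the study's text names by gene ID. Of 247 such genes, 110 were among the 39895, and the counts below are of those alone. The rest had a mean under 2 in a control organ or were not tested. The study chose these genes as changed in the same libraries. Their share of calls (59 of the 110 among the 39895, 53.6%, against 7.74% of all) is therefore not evidence about the groups, and it was not tested. Rises or falls of listed genes in an organ may also follow from that choice.

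Of 7 listed sodium and potassium transport genes, 4 were among the 39895, and 3 of these had the higher change in roots. The sodium transporter gene HKT (Csa08g040240) had 22, 35 and 27 normalised CPM in control roots and 104, 115 and 72 in salt-treated roots. In shoots it had 3, 3 and 2 without salt and was listed at 0 in all 3 salt-treated libraries. Salt thus raised it 3.46-fold in roots, lowered it in shoots to a value too small to give a fold, and the libraries of the 2 conditions did not overlap in either organ (in roots 51.8% and in shoots 52.6% of the 39895 genes did not overlap). The difference was 4.42 ± 0.29 on the log2 scale (± SE, adjusted p = 1.02e-05 by limma), and because of the zeros it depended on the pseudocount, from 3.62 with 1 added to 6.55 with 0.1 added.

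The exchanger gene SOS1 (Csa04g006390) had 8, 9 and 8 in control roots against 28, 47 and 37 with salt, a 4.48-fold rise. In shoots it had 4, 4 and 5 without and 6, 8 and 5 with salt, so the shoot groups overlapped at 5. The difference was 1.59 ± 0.27 (adjusted p = 0.00214, limma). The vacuolar exchanger gene NHX2 (Csa15g006210) rose in both organs, from 10 in each control root library to 30, 26 and 23, and in shoots from 6, 9 and 6 to 26, 20 and 27. Its difference was not called (-0.39, 95% interval -0.90 to 0.11). NHX4 (Csa15g007930) fell in both organs, from 5, 5 and 3 to 1, 2 and 1 in roots and from 3, 3 and 2 to 0 in every salt-treated shoot library. Its call of 1.23 ± 0.36 (adjusted p = 0.0291, limma) was lost when 1 was added in place of 0.5, which gave 0.67, and with equal library totals, which gave 1.06. It was also lost without any of 6 single libraries: control root replicate 3, salt root replicate 2, control shoot replicates 1 and 2, and salt shoot replicates 1 and 3 (0.99 to 1.23).

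Anion transporters moved in both directions. The copies of the sulfate transporter SULTR3;4 all rose in roots, by 5.15-fold to 5.54-fold, and 1 rose in shoots. Csa01g018620 had 5, 4 and 4 in control roots and 30, 23 and 19 with salt, and 3, 2 and 2 against 3, 4 and 4 in shoots, with a difference of 1.76 ± 0.28 (adjusted p = 0.00124, limma). Its copy Csa19g022820 differed by 1.61, and Csa15g020720, at 0.95 with an interval of 0.30 to 1.59, did not pass the limit of 1, although it did without control root replicate 1, salt root replicates 2 or 3, or control shoot replicate 3 (1.05 to 1.09).

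Chloride channel B, a CLC-family anion transporter, fell in roots. Csa09g012970 had 39, 25 and 37 in control roots against 2, 3 and 4 with salt, an 11.2-fold fall, while shoots had 11, 12 and 11 against 16, 7 and 16. The difference was -3.40 ± 0.43 (adjusted p = 0.000339, limma). The copy Csa04g014930 fell 6.69-fold in roots and had a difference of -2.20. The copy Csa06g007100 fell in both organs, 7.12-fold in roots and 3.50-fold in shoots, and its difference of -0.93 was not called, but was called when replicate 2 of control or salt-treated roots, or replicate 1 or 2 of salt-treated shoots, was left out (-1.08 to -1.01). All 3 copies fell in roots, and this last one fell in shoots as well.

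A nitrate transporter gene and a nitrate reductase gene, taken from different lists, fell in roots and had the higher change in shoots. The NRT1 nitrate transporter gene Csa17g016300 had 21, 25 and 34 in control roots and 1, 2 and 1 with salt, a 20.0-fold fall, and it fell 4.43-fold in shoots from 12, 9 and 10 to 3, 2 and 2. The difference was -1.96 ± 0.34 (adjusted p = 0.00214, limma). Nitrate reductase 2 (Csa03g040490), the enzyme that reduces nitrate to nitrite, had 26, 16 and 32 against 1, 3 and 7 in roots and 97, 89 and 99 against 61, 43 and 73 in shoots. Its difference of -2.12 ± 0.65 passed narrowly (adjusted p = 0.0363, limma). It was lost under 9 of 24 alternative settings, 8 of them leaving out 1 library (any but control root replicate 2, salt root replicates 1 and 3 and salt shoot replicate 2), with values of -2.15 to -1.91. In the study's nitrogen list of 4 genes, 1 difference was called in each direction, with a median of 0.22. The phosphate transporter gene Csa16g030840 had low values, with 3 in every control root and 2 in every salt-treated root library, and rose in shoots from 3, 2 and 2 to 13, 6 and 17.

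Calcium:cation antiporter genes, which exchange calcium for other cations across membranes, rose more in shoots. Csa06g026060 had 3, 5 and 6 in control roots and 17, 20 and 12 with salt, and in shoots 4, 6 and 9 against 154, 79 and 112. That is 3.50-fold in roots and 18.2-fold in shoots, a difference of -2.37 ± 0.46 (adjusted p = 0.00413, limma). Of the 4 such genes, 3 were called in this direction, and Csa08g010140 was at -0.85 (called without control root replicate 2, at -1.02). A calcium-transporting ATPase gene (Csa11g090670) rose in both organs, 4.77-fold in roots and 3.17-fold in shoots, with a difference that was not called (0.56, interval 0.01 to 1.11). Of 26 listed genes of other ion transport, 16 were among the 39895. Of these, 2 were called as higher in roots and 7 as higher in shoots. Their median difference was -0.89, against -0.02 for all 39895 genes.

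**Figure D3:**
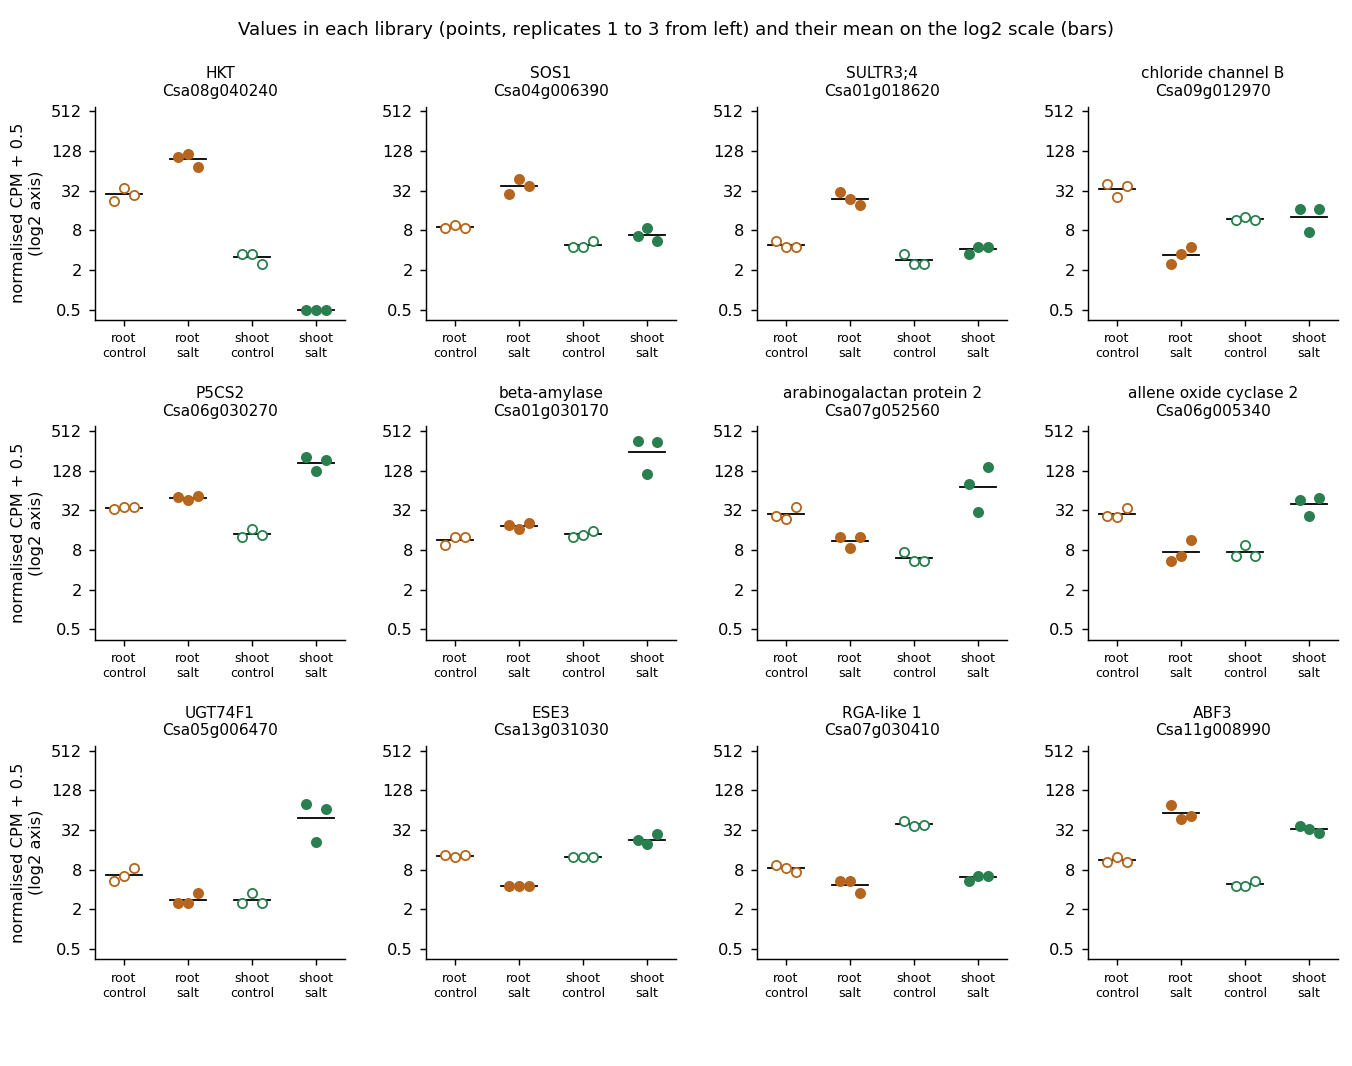
Normalised CPM plus 0.5 (y axis, log2 scale) in each library (x axis, roots in brown and shoots in green, 3 libraries a group) for 12 genes, with open points for control, filled points for salt and bars at the mean of the log2 values. HKT and SOS1 rise in roots, P5CS2 and beta-amylase rise in shoots, and ABF3 rises in both.

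Proline synthesis genes rose in shoots and were not called in roots. P5CS2 (delta 1-pyrroline-5-carboxylate synthase 2) catalyses the first step of proline synthesis from glutamate. Its copy Csa06g030270 had 33, 36 and 35 in control roots and 50, 45 and 52 with salt, and in shoots 12, 16 and 13 against 206, 128 and 184. Shoots were thus below roots without salt and above them with salt. The rise was 12.6-fold in shoots against 1.41-fold in roots, a difference of -3.10 ± 0.22 (adjusted p = 1.32e-05, limma). The other P5CS copies, Csa04g041940 and Csa09g067680, differed by -2.67 and -1.82. Pyrroline-5-carboxylate reductase (Csa13g017630), which completes the synthesis, had 9, 10 and 10 against 13, 14 and 13 in roots and 14, 15 and 12 against 90, 58 and 84 in shoots, a difference of -1.99. These genes belong to a list of amino acid metabolism that the study compiled from genes raised in shoots. The direction of the list (11 of 12 called as higher in shoots) was set by that choice. The lack of a call in roots may reflect it as well, since some genes that the study found raised in both organs were left out.

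Starch and sugar genes were divided. Beta-amylase, which releases maltose from starch, had 3 copies that all rose more in shoots. Csa01g030170 had 9, 12 and 12 against 19, 16 and 20 in roots and 12, 13 and 15 against 365, 114 and 345 in shoots, a 20.6-fold rise in shoots and a difference of -3.43 ± 0.49 (adjusted p = 0.000732, limma). In shoots, its salt library of replicate 2 had the lowest of the salt values, and all 3 stood above every control. The copies Csa19g036120 and Csa15g048800 also rose in roots, 2.27-fold and 2.32-fold, and their differences were -2.19 and -1.86.

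The 3 raffinose synthase genes, whose enzyme joins galactose to sucrose, were called in the same direction. Csa10g047220 had 13, 11 and 12 against 36, 22 and 22 in roots, and 3, 3 and 2 against 71, 31 and 43 in shoots, with a difference of -2.80 ± 0.39. Csa11g057610 and Csa12g079610 rose in shoots too, 4.31-fold and 3.38-fold, while in roots their means went from 21.3 to 13.7 and from 14.7 to 10.0 without a call. Here the copies of 1 enzyme agreed in shoots but not in roots.

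In contrast, trehalose-phosphatase/synthase 9, a gene of trehalose metabolism, rose more in roots. Its copy Csa17g030990 had 28, 35 and 51 against 196, 152 and 181 in roots and 9, 7 and 9 against 22, 15 and 24 in shoots, a difference of 1.02 ± 0.31 close to the limit of 1. That call was lost under 11 of 24 settings, 8 of them leaving out 1 library (any but control root replicate 3, salt root replicate 2, control shoot replicate 2 and salt shoot replicate 3), with values of 0.82 to 1.08. A galactose mutarotase gene (Csa06g021410) had 2 in each control root library and 10, 9 and 8 with salt, while shoots had 6, 5 and 5 against 6, 6 and 7, a difference of 1.69 ± 0.17. Sucrose synthase 3, which splits sucrose, had 3 copies with no called difference. Csa02g005510 rose 9.06-fold in roots and 14.3-fold in shoots, and its difference of -0.59 had an interval of -1.11 to -0.08. Over all 17 listed starch and sugar genes, 4 were higher in roots (2 without salt shoot replicate 2) and 6 higher in shoots, with a median difference of -0.59.

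Most of the ABA genes counted here rose in both organs. The study named them as raised in shoots, roots or both in these libraries, so the rises may follow from that choice. Of 25 listed genes, 14 were among the 39895. Of these 14, 12 rose in roots and 13 in shoots. A difference was called in 3 (7.74% of all 39895 had one), and the median difference was 0.27. ABF3, a transcription factor that binds ABA-responsive elements, had 3 copies. Csa11g008990 had 10, 12 and 10 against 76, 47 and 52 in roots and 4, 4 and 5 against 37, 33 and 28 in shoots, a difference of -0.41 with an interval of -0.94 to 0.13. A difference of 1 log2 unit or more lay outside that interval, and outside that of the copy Csa10g008210 (-0.36, interval -0.97 to 0.26). The copy Csa12g009690, also not called, was at -0.68 with an interval of -1.29 to -0.08, which reached past -1 and left out 0. For ABF2 (Csa14g049830, 0.52, interval -0.16 to 1.20) and HVA22D, an ABA-induced membrane protein (Csa11g019700, 0.28, interval -0.50 to 1.05), the intervals reached past 1, so such a difference could not be told.

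The exceptions were ABF1 and GEM-Related 5. ABF1 (Csa17g085550), another factor of the ABF family, had 16, 16 and 17 against 72, 59 and 52 in roots and 37, 38 and 48 against 61, 79 and 50 in shoots. It was higher in shoots than in roots without salt and at like levels with salt, and its difference was 1.25 ± 0.23 (adjusted p = 0.00331, limma). GEM-Related 5 (Csa13g015810), an ABA-responsive protein in Arabidopsis, had 7, 8 and 10 against 13, 10 and 11 in roots, and 7 in every control shoot library against 36, 39 and 39 with salt. Its difference was -1.93 ± 0.18 (adjusted p = 5.23e-05, limma), and the copy Csa20g018560 was called at -1.17 (not without salt shoot replicate 3, at -1.0).

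Ethylene genes had the higher change in shoots more often. Of 12 listed genes, 9 fell in roots and 4 in shoots, and 6 had the higher change in shoots against 1 in roots (2 without salt shoot replicate 2, and 2 without salt root replicate 1). ACC oxidase catalyses the last step of ethylene synthesis. The gene ACC oxidase 2 (Csa09g097000) had 101, 99 and 150 against 57, 52 and 68 in roots and 100, 100 and 75 against 352, 263 and 334 in shoots. The organs were similar without salt and apart with it, a difference of -2.74 ± 0.26 (adjusted p = 5.97e-05, limma), although the change in roots alone (-0.96) was not called. ACC oxidase 1 (Csa00441s160) fell in both organs, 6.4-fold in roots and 3.06-fold in shoots, with a difference of -1.20 that was not called (adjusted p = 0.0597, limma). It was called under 5 of 24 settings, among them with roots and shoots paired by number (adjusted p = 0.0433, limma) and without salt root replicate 3, which gave -1.49.

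All 3 copies of ESE3, an ethylene-responsive transcription factor, fell in roots and were not called in shoots. Csa13g031030 had 13, 12 and 13 against 4, 4 and 4 in roots and 12 in each control shoot library against 22, 19 and 27, a difference of -2.42 ± 0.16 (adjusted p = 9.85e-06, limma). Csa20g047450 and Csa08g022870 fell 5.62-fold and 4.57-fold in roots and differed by -2.06 and -2.0. ERF105, a further factor of this family, fell in roots from 27, 50 and 77 to 12, 10 and 12 (Csa18g022000), while shoots had 4, 4 and 9 against 8, 4 and 7. That control spread was wide, and the copy Csa11g082690 passed only narrowly (-2.08 ± 0.69, adjusted p = 0.048, limma). Its call was lost under 12 of 24 settings, 9 of them leaving out 1 library (any but control root replicate 1, control shoot replicate 3 and salt shoot replicate 2), with values of -2.22 to -1.7. An ethylene-forming enzyme gene, Csa17g008270, had 6, 7 and 5 against 22, 26 and 18 in roots and 69, 59 and 59 against 61, 57 and 48 in shoots, a difference of 1.96 ± 0.21.

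The jasmonate gene among the 39895 was called in opposite directions. Allene oxide cyclase 2 (Csa06g005340) makes a precursor of jasmonate in plastids. It had 26, 25 and 34 in control roots and 5, 6 and 11 with salt, and 6, 9 and 6 in control shoots and 46, 26 and 49 with salt. The salt-treated shoots thus reached the level of control roots, and salt-treated roots that of control shoots. The fall in roots was 3.86-fold, the rise in shoots 5.76-fold and the difference -4.36 ± 0.42 (adjusted p = 6.58e-05, limma).

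In the gibberellin and cytokinin lists all called differences were higher in roots (3 of 3 genes and 1 of 2, the latter 2 of 2 without salt shoot replicate 2). In the brassinosteroid list, 2 of 7 were higher in roots and 2 in shoots, and in the auxin list 4 of 8 were higher in shoots. The 3 copies of RGA-like 1, a DELLA repressor of gibberellin responses, were all called. Csa07g030410 had 9, 8 and 7 against 5, 5 and 3 in roots and 44, 36 and 38 against 5, 6 and 6 in shoots, a 6.94-fold fall in shoots and a difference of 1.85 ± 0.25 (adjusted p = 0.000482, limma). Without salt shoots exceeded roots, and with salt both organs were near 5. Cytokinin oxidase/dehydrogenase 6 (Csa16g001090), which breaks down cytokinin, had 21, 19 and 19 against 14, 13 and 10 in roots and 13, 11 and 11 against 2, 2 and 2 in shoots, a difference of 1.61 ± 0.18.

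A pair of brassinosteroid synthesis genes fell in shoots and not in roots. The first (Csa15g017890) had 10, 10 and 8 against 9, 11 and 9 in roots and 14, 11 and 10 against 3, 4 and 3 in shoots, with a difference of 1.71 ± 0.22, and the second (Csa01g016080) differed by 1.93. Sterol methyltransferase 3, which acts earlier in sterol synthesis, went the other way. Csa07g047620 had 19, 22 and 26 against 2, 3 and 3 in roots and 9, 7 and 8 against 4, 2 and 3 in shoots, a difference of -1.54 ± 0.31. Among the auxin genes, the Aux/IAA repressor gene Csa14g005400 had 6, 7 and 7 against 1, 1 and 1 in roots and 10, 7 and 9 against 4, 7 and 5 in shoots. The dormancy/auxin associated gene Csa16g007290 rose in both organs, 5.80-fold in roots and 21.1-fold in shoots.

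**Figure D4:**
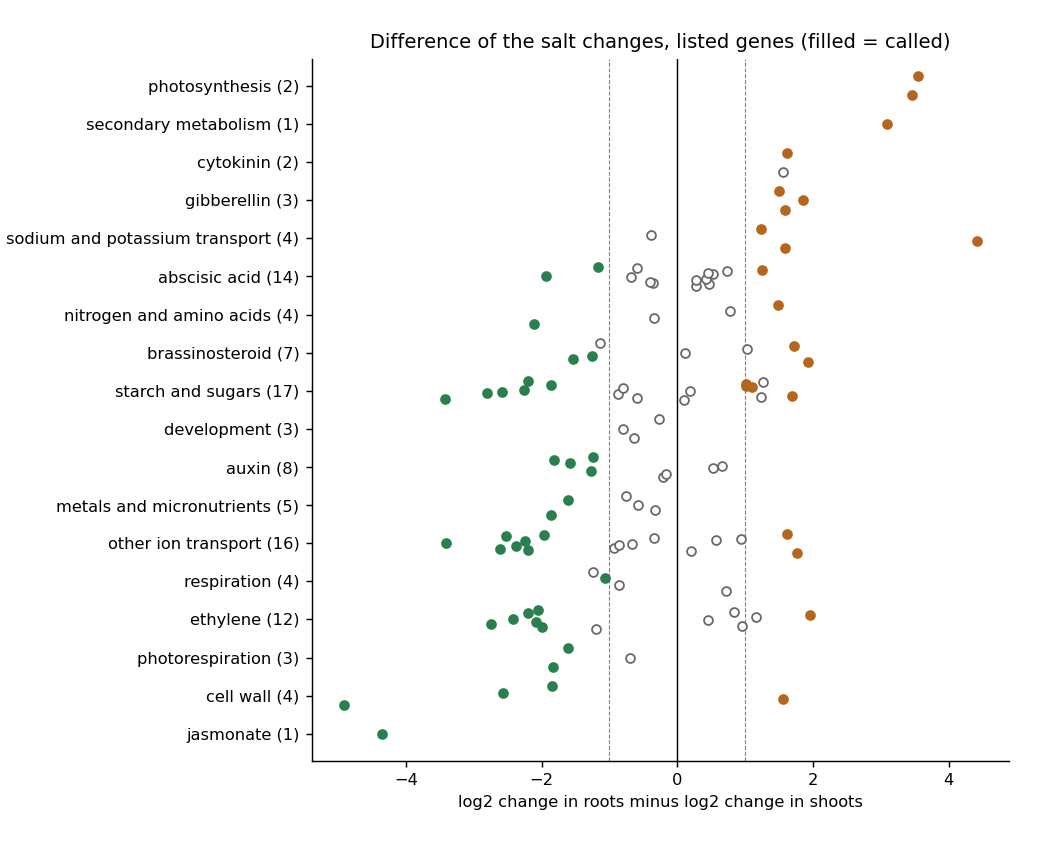
Log2 change in roots minus log2 change in shoots (x axis) for the 110 genes of the study's text, by group (y axis, number of genes in brackets), with filled points for called differences and open points for those not called. All 3 gibberellin genes lie to the right of 1, ABA genes spread around 0, and the jasmonate gene lies at -4.36.

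Cell wall genes held some of the largest differences and were called in both directions. Of 9 in the text list, 4 were among the 39895, and 3 of these were higher in shoots and 1 in roots. The latter, a pectin lyase gene (Csa07g059670), differed by 1.55 ± 0.49 (adjusted p = 0.0409, limma), a call lost under 11 of 24 settings. Of 16 cell wall genes among the 39895 that the study listed as lowered in shoots, 6 were called as higher in roots (3.76% of all 39895 were). That direction was set by that choice. Arabinogalactan proteins are glycoproteins of the cell surface and wall. The arabinogalactan protein 2 gene Csa07g052560 had 26, 23 and 36 in control roots and 12, 8 and 12 with salt, and in shoots 7, 5 and 5 against 81, 30 and 146. It fell 2.66-fold in roots and rose 15.1-fold in shoots, a difference of -4.92 ± 0.62 (adjusted p = 0.000339, limma). Its copies Csa09g086790 and Csa16g044220 rose in shoots as well (12.8-fold and 10.6-fold), but in roots had 35, 30 and 52 against 41, 27 and 35, and 20, 19 and 30 against 38, 23 and 27, without a call. Expansin A10, of a family that loosens walls, had copies with the higher change in shoots. Csa14g031940 had 4, 3 and 4 against 1, 3 and 3 in roots and 21, 22 and 20 against 100, 43 and 123 in shoots, a difference of -2.57 ± 0.54.

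Of 21 photosynthesis genes that the study lists as lowered in shoots, 4 were among the 39895, and all 4 had the higher change in roots (3.76% of all 39895 did), a direction set by that choice. The text list adds the Rubisco small chain genes Csa16g026850 and Csa05g079910, which encode part of the carbon-fixing enzyme. Csa16g026850 had 4, 10 and 4 in control roots and 67, 24 and 31 with salt, against 12600, 11583 and 12546 in control shoots and 6015, 6143 and 7635 with salt. The highest root value thus stayed far below the lowest shoot value. The rise in roots was 6.78-fold, and the difference was 3.54 ± 0.53 (adjusted p = 0.000873, limma). When each organ was fitted alone this call was lost (adjusted p = 0.186). Csa05g079910 rose from 7, 16 and 9 to 113, 41 and 68 in roots, with replicate 1 highest in both genes. The green-tissue marker sum of salt-treated roots was also highest in replicate 1 (201, against 75 and 112), and its part in this result was not tested. Considered next were the 78 genes at 200 or more in control shoots and at least 50 times their level in control roots. In roots, 11 of them rose and 13 fell, with a median change of -0.13, whereas 4.79% and 7.66% of all 39895 did. In shoots, 1 of the 78 rose and 20 fell, with a median change of -0.71, whereas 7.15% and 8.22% of all 39895 did. Of the 78, 21 (26.9%) had the higher change in roots, against 3.76% of all. The control libraries by which the 78 were chosen also enter the difference, so this share is a description with no test.

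Genes of protein synthesis and cell division were followed next. These lists come from genes that the study found lowered in shoots, so the direction was set by that choice. ERF106 (Csa08g056810) and chloride channel B (Csa06g007100), which the study found lowered in both organs, were not among the genes from which the lists were drawn. How far roots followed may therefore also reflect that choice. Counts here are of listed genes among the 39895. For all 39895 genes, 7.66% fell in roots and 3.76% had the higher change in roots. Of 19 ribosomal protein genes, 19 fell in shoots and 2 in roots, and 15 differences were called, with a median of 1.21. The ribosomal protein S5 family gene Csa05g021480 had 4, 5 and 5 against 4, 4 and 4 in roots and 100, 108 and 129 against 30, 38 and 25 in shoots. Of 20 genes of DNA synthesis, histones and cell division, all 20 fell in shoots and 10 in roots, and 7 differences were called, with a median of 0.82. More genes of the second list than of the first were thus called as falling in roots. The choice of the lists may have shaped this contrast, and it was not tested. Cyclin D3 (Csa12g009530), which promotes entry into the cell cycle, fell in both organs (28, 25 and 24 against 6, 15 and 9 in roots, 10, 10 and 10 against 2, 3 and 2 in shoots), whereas cyclin D1 (Csa05g089240) had 8, 11 and 9 against 12, 15 and 10 in roots and fell in shoots from 11, 10 and 13 to 3, 4 and 3, a difference of 2.01 ± 0.25.

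Defence, detoxification and redox genes included the largest difference at the pseudocount of 0.5. UDP-glycosyltransferase 74F1 (Csa05g006470), which in Arabidopsis glucosylates salicylic acid, had 5, 6 and 8 in control roots and 2, 2 and 3 with salt, against 2, 3 and 2 in control shoots and 79, 21 and 66 with salt. It fell 2.71-fold in roots and rose 23.7-fold in shoots, a difference of -5.38 ± 0.57 (adjusted p = 0.000117, limma). With 0.1 added, it was -5.73, and genes listed at 0 in a group, such as HKT (Csa08g040240) at 6.55, were past it. A chitinase gene (Csa05g006820) had 5, 4 and 2 against 9, 14 and 7 in roots and 4, 5 and 7 against 423, 134 and 250 in shoots, which is 2.73-fold and 50.4-fold and a difference of -4.06 ± 0.58. A cytochrome P450 gene (Csa01g023170) was not called in roots (10, 11 and 10 against 9, 9 and 10) and rose in shoots from 8, 6 and 6 to 170, 68 and 173.

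Alcohol dehydrogenase 1, an enzyme of ethanol fermentation, varied strongly between root libraries. Csa07g048690 had 425, 70 and 291 in control roots and 80, 93 and 229 with salt, so that the root groups overlapped, while shoots went from 7, 6 and 7 to 165, 75 and 122. The difference was -4.79 ± 0.83 (adjusted p = 0.00217, limma), and the copy Csa09g083810 had the same pattern at -3.85. The gene salt tolerance zinc finger (Csa14g035300), a transcriptional repressor in Arabidopsis, had 12, 23 and 41 against 18, 12 and 20 in roots and 2, 2 and 7 against 57, 21 and 43 in shoots. Catalase 2, which removes hydrogen peroxide in peroxisomes, rose in both organs but more in shoots. Csa10g007080 had 15, 17 and 21 against 47, 33 and 45 in roots and 52, 72 and 89 against 985, 523 and 1053 in shoots, a difference of -2.34 ± 0.38.

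All 4 listed respiration genes rose in both organs, and 1 difference was called (3 without salt shoot replicate 2). Of 5 metal genes, 5 rose in shoots and 3 in roots, and 2 differences were called (1 without salt root replicate 1). Alternative oxidase 1A, which bypasses part of the mitochondrial electron transport chain, rose 23.1-fold in roots and 13.9-fold in shoots for Csa01g025600 (2, 3 and 4 against 92, 40 and 76 in roots, 9, 10 and 8 against 147, 52 and 177 in shoots). Its copy Csa19g031590 rose 11.7-fold and 28.8-fold. The differences of 0.72 (interval -0.60 to 2.04) and -1.24 (interval -2.44 to -0.05) had opposite signs and were not called, but the second was called without salt shoot replicate 2 (-1.74) and with roots and shoots paired by number (-1.24, adjusted p = 0.00508, limma). Ferritin 1, which stores iron in plastids, had 3 copies that rose 4.61-fold to 6.74-fold in roots and 5.75-fold to 10.9-fold in shoots, with differences of -0.75 to -0.33 and intervals wide enough to hold 1 log2 unit. Glycolate oxidase, an enzyme of photorespiration, was called as higher in shoots for 2 of 3 copies. Csa06g046560 had 16, 16 and 17 against 35, 31 and 36 in roots and 6, 5 and 6 against 53, 31 and 52 in shoots, so that shoots were below roots without salt and mostly above them with it, and the difference was -1.82 ± 0.24. Glutamine synthetase 1 (Csa20g024450), which assimilates ammonium, had 5, 7 and 6 against 4, 5 and 5 in roots and fell in shoots from 21, 16 and 16 to 4, 5 and 5, a difference of 1.48 ± 0.22.

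The study's lists of genes raised in shoots in these libraries had their direction set by that choice. How often roots followed may reflect it as well, since some genes that the study found raised in both organs were left out. Counts are of listed genes among the 39895. For all 39895 genes, 4.79% rose in roots and 3.98% had the higher change in shoots. Of 15 heat shock genes, 7 also rose in roots and 4 differences were called. Of 17 cytochrome P450 genes, 2 rose in roots and 12 differences were called. Of 12 cell wall genes, 1 rose in roots and 10 differences were called, and all 3 genes of wax synthesis and all 3 of flavonoid and anthocyanin synthesis were called, with none rising in roots.

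At the other end, several genes were listed at 0 in all salt-treated shoots and not called in roots. Nitrile specifier protein 1 (Csa15g021300), which directs glucosinolate breakdown to nitriles, had 68, 74 and 107 against 109, 92 and 106 in roots and 4, 3 and 6 against 0, 0 and 0 in shoots. MYB29 (Csa13g009720), a factor of aliphatic glucosinolate synthesis in Arabidopsis, had 5, 6 and 6 against 8, 11 and 8 in roots and 2, 3 and 2 against 0, 0 and 0 in shoots. A gene of cytochrome P450 family 78 (Csa17g001660) had 47, 75 and 79 against 41, 48 and 37 in roots and 8, 10 and 11 against 0, 0 and 0 in shoots, and amino acid permease 3 (Csa16g041560), an amino acid importer, had 9, 11 and 10 against 10, 13 and 11 and 3, 4 and 5 against 0, 0 and 0. Their differences were 3.55, 3.10, 3.70 and 3.31 with a pseudocount of 0.5, and 2.70, 2.30, 2.77 and 2.46 with 1. With 0.1 they were 5.74, 5.23, 5.95 and 5.50, so their size was set by the pseudocount. All 4 were called with each. Germin-like protein 1 (Csa07g039700), a cell wall protein, was high in control shoots (575, 494 and 449), fell there 9.31-fold to 42, 50 and 71, and was at 2, 3 and 2 against 2, 2 and 2 in roots. From such low root values, a fall as large as that in shoots could not show on the log2(value + 0.5) scale.

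At a pseudocount of 0.5, the largest difference with the higher change in roots belonged to Csa07g052600 (with 0.1 it was 5.63, below HKT, Csa08g040240, at 6.55), to which the sources used here give no name. It had 7, 9 and 14 against 77, 65 and 54 in roots and 3, 3 and 5 against 1, 1 and 0 in shoots, a difference of 4.66 ± 0.56 (adjusted p = 0.000266, limma). The next unnamed gene, Csa16g044260, had 17, 18 and 26 against 150, 134 and 119 in roots and 5, 5 and 6 against 1, 2 and 2 in shoots. In the other direction, the unnamed genes Csa03g036820 and Csa09g080380 fell in roots and rose in shoots, with differences of -4.75 and -4.19.

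Genes that share a name in the study's text were set side by side. For 29 names with at most 3 listed genes and at least 2 of them among the 39895, the difference had 1 sign in 27. For 10 names every gene was called, for 9 some were, for 10 none was, and no name had genes called in opposite directions. The range of the difference within a name had a median of 0.50 and reached 2.47 for chloride channel B. Whether the genes of a name are homeologues was not checked, and names of larger families were left out of this tally after their values were seen.

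Genes with a called difference also differed in where they were expressed without salt. The median log2 ratio of control shoots to control roots was 0.85 for the 1500 genes higher in roots and -0.53 for the 1589 higher in shoots, against -0.10 for all 39895. Of the first, 31.1% were at least 4-fold higher in control shoots, against 5.05% of all. The same control libraries enter this ratio and the difference, so the relation is given as a description with no test.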

How the data were processed

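Expression was measured by RNA sequencing in 12 libraries of 4 groups, control and salt-treated roots and shoots, with 3 in each. The authors trimmed reads with Trimmomatic, aligned them to the DH55 genome with STAR, computed CPM and normalised them with DESeq, per the methods and processing notes. The labels and methods state no tool versions. The deposited values are whole numbers, treated as scores that the authors rounded, and no count test was run. Depth is unknown, so no counting interval is given. No column of fold changes or p values was used, and columns of other samples numbered 0.

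Groups came from the labels. Values were taken as log2(value + 0.5), genes at 1 or more in at least 3 libraries were kept (49928), and 1 model with 4 groups was fitted in limma 3.58.1 under R 4.3.3, with a trend in the prior variance. A fold is a ratio of mean values, whereas a difference is on the log2(value + 0.5) scale, which understates the change of low genes. SE is the moderated standard error, and intervals are 95%. The spread is that between replicates, and 3 against 3 libraries cannot give an exact permutation p under 0.1, so single genes were tested only in the model. The script was tested on simulated data.

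The genes and lists were chosen with earlier results of these data known. Named genes were those of the study's text lists and the 10 largest non-overlapping differences in each direction, over all genes and over genes with a name. The genes P5CS, P5C reductase, ribosomal S5, cyclins D1 and D3, catalase 2 and arabinogalactan protein copy Csa16g044220 fall outside that rule and were named after their values were seen. No gene sequence or position was used, since none of the gene IDs matched the reference table. Alternatives were the pseudocount, the low-value filter, the scaling, the moderation, library weights, separate fits, other member limits, leaving out each library and a replicate block. Root and shoot libraries of the same condition and number deviated together from their group means (r = 0.14 to 0.39 in control and 0.11 to 0.41 with salt, all 6 pairs above 0.1), and a fit with these pairs as blocks was added after the data were seen.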

Additional observations from a re-analysis of the deposited data

Results flagged for a closer look

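The results below were singled out because the salt changes of the 2 organs differed by the test of the difference itself, limma's interaction contrast. Single genes were taken from the study's text lists and the largest differences, where roots and shoots were also called in opposite directions. They are thus only some of the 56 genes called in opposite directions. The results also comprise the counts of 1500 genes with the higher change in roots and 1589 with the higher change in shoots.

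With the higher change in roots, the difference was 4.66 for Csa07g052600, 4.42 for HKT (Csa08g040240) and 4.18 for Csa16g044260. With the higher change in shoots, it was -5.38 for UDP-glycosyltransferase 74F1 (Csa05g006470), -4.92 for arabinogalactan protein 2 (Csa07g052560), -4.75 for Csa03g036820, -4.36 for allene oxide cyclase 2 (Csa06g005340), -4.19 for Csa09g080380 and -4.16 for a further unnamed gene with 9, 9 and 12 against 2, 2 and 2 in roots and 5, 5 and 5 against 26, 13 and 36 in shoots. Groups of 3 libraries were too small for a test of single outlying libraries.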

How the results depend on the processing

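The counts of genes with the higher change in roots (1500) and in shoots (1589) and of genes called in opposite directions (56) stayed within 1.5 times under other pseudocounts, scalings, low-value filters, library weights, no moderation, separate fits per organ and adjustment over the 39895 genes alone. Other limits on the control means of both organs moved them. A minimum of 5 gave 729, 967 and 26, a minimum of 20 gave 141, 271 and 3, and a minimum of 1 gave 101 genes called in opposite directions. These limits change how many genes are counted (27688, 7614 and 44151), and the share higher in roots changed as well, from 3.76% to 2.63%, 1.85% and 4.62%. Leaving out 1 library gave 1334 to 1794 genes higher in roots, 1378 to 1977 higher in shoots and 46 to 68 in opposite directions.

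The median difference of -0.01719 became -0.01885 with a pseudocount of 0.1, -0.01535 with 1, -0.02548 with genes at 5 or more in 3 libraries, -0.06243 with equal library totals, 0.01832 with median-of-ratios factors and -0.00665 with quantile normalization. With control means of 1, 5 and 20 or more it was -0.01206, -0.03987 and -0.09026, and without 1 library -0.02626 to -0.0132. Not called with a pseudocount of 0.5, BRS1 (Csa10g011910; 2, 2 and 2 against 0, 0 and 0 in roots) turned from 0.12 to -1.5753 with 0.1, which weighs zeros more. Of 174 named genes called, 141 kept the call under every setting, 33 lost it under at least 1 and 0 changed direction. With the replicate block the counts were 1482, 1613 and 56 and the median -0.01719. With root and shoot libraries paired by number within a condition, an alternative chosen after seeing the data, they were 1494 and 1660 and the median -0.01719, and of 225 named genes 4 gained a call, 1 lost it and 220 did not change. Over all groups, same-numbered libraries had correlations of -0.26 to 0.41, with 13 of 18 above 0.1, and differently numbered ones -0.40 to 0.31, with 10 of 36 above 0.1. Between control and salt, same-numbered libraries had -0.26 to -0.18 for number 1 and 0.05 to 0.27 for numbers 2 and 3. Whether numbers pair control with salt was not tested. Depth sets no stated limit here, but values of 1 to 3 are single steps of the rounded scale.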

Other observations

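Near the arabinogalactan protein 2 genes in the numbering of the IDs lay genes that rose in roots, which were noticed after their values were seen. Csa07g052600 follows Csa07g052560, and Csa16g044260 follows Csa16g044220. Another unnamed gene follows Csa09g086790 at the same distance in the numbering and had 19, 22 and 35 in control roots, 176, 162 and 153 in salt-treated roots, 3, 2 and 3 in control shoots and 3, 1 and 3 in salt-treated shoots. In each of the 3 places, the arabinogalactan gene rose in shoots and the later gene rose in roots, although only Csa07g052560 also fell in roots. The numbering holds other genes in between, and in each place the one just before the later gene had the higher change in shoots, like the arabinogalactan gene, with differences of -3.17, -2.18 and -1.62. Positions in the genome were not used, so whether the genes are neighbours was not tested.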
